A study of Mus musculus with 100 samples.

Results

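The genes described here are the nuclear genes of the mitochondrial respiratory chain measured in whole mouse knee joints. They were taken by symbol from the count table: every gene whose symbol begins with Ndufa, Ndufb, Ndufc, Ndufs, Ndufv, Uqcr, Cox4 to Cox8 or Atp5, plus Sdha, Sdhb, Sdhc and Sdhd, without the entries marked as pseudogenes. The rule used no measured value and found 89 of 17310 genes, all of which passed the filter on low counts. By complex there were 43 genes of complex I, 4 of complex II, 7 of complex III, 18 of complex IV and 17 of complex V. The rule also takes in 7 assembly factors of complex I (the Ndufaf genes) and the supercomplex factor Cox7a2l. The 17 genes counted with complex V by name include Atp5s and Atp5sl, which RefSeq lists as Dmac2l and Dmac2 and which are not structural subunits of ATP synthase.

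The respiratory chain sits in the inner mitochondrial membrane. Complex I (NADH dehydrogenase) and complex II (succinate dehydrogenase) pass electrons to ubiquinone, complex III (the cytochrome bc1 complex) hands them to cytochrome c, and complex IV (cytochrome c oxidase) to oxygen, while complex V (ATP synthase) uses the proton gradient to make ATP. Skeletal muscle is rich in these complexes, cartilage is poor in them, and several complex IV subunits have a separate isoform in heart and skeletal muscle. Complexes I, III, IV and V also hold subunits encoded by mitochondrial DNA, and these are not analysed here: the values below are for nuclear transcripts.

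The libraries came from mice of 3 inbred strains, labelled as 10 weeks old and with no transgene or drug named in the labels: MRL/MpJ, labelled as not susceptible to post-traumatic osteoarthritis, C57BL/6, labelled as moderately susceptible, and STR/ort, labelled as highly susceptible. The right knee was injured by tibial compression, and injured joints and uninjured contralateral joints were collected at 2-weeks, 1-week or 1-day after it. The study's methods name the C57BL/6 mice as C57BL/6J. They give 10 weeks as the age at injury, so joints collected later came from older mice. Separate joints from before injury are called 0-day. There were 100 libraries in 21 groups of 4 or 5 joints. Joints were cut with small traces of soft tissue left on and used whole, so a library mixes bone, marrow, cartilage, synovium, ligament and muscle, and the sex of the mice is not given in the labels used here. In such bulk samples, fewer cells of a type and less RNA per cell cannot be told apart.

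Total counts ran from 6182016 to 20986027 per library (median 10582591), and the 89 genes took between 0.82% and 1.96% of them. The labels put 0-day, 1-day and 1-week in experimental batch 1 (70 libraries) and 2-weeks in batch 2 (30 libraries), so time and batch cannot be told apart for 2-weeks, and comparisons were made within a time point except for an added comparison inside batch 1. The labelled tissue was checked on marker genes. At 0-day the mean log2 CPM was between 7.49 and 8.51 for cartilage genes and between 6.78 and 7.29 for bone genes in the 3 strains. The mean of 13 fast-fibre muscle genes was higher and varied over the 21 groups from 10.82 (1-week injured STR/ort) to 12.83 (0-day STR/ort). That list moved with the respiratory chain in several comparisons, and its values are given beside them.

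Levels differed widely between subunits. Per kilobase of exon, mean CPM (counts scaled to library size, with TMM factors) over all libraries ran from 3.84 to 197 in complex I (median 42.9), from 1.03 to 149 in complex II (median 58.8), from 66.4 to 371 in complex III (median 90.8), from 4.72 to 281 in complex IV (median 89.8) and from 3.85 to 392 in complex V (median 75.1). In CPM, the highest gene of complex II was Sdha (617 CPM), its flavoprotein, and that of complex V was Atp5b (1361 CPM), the catalytic beta subunit of ATP synthase. In complexes III and IV the order of the genes was not the same in both batches: Uqcrb, a subunit of complex III, had median CPM of 392 in batch 1 and 150 in batch 2, and Uqcrc1, a core protein of that complex, 211 and 362. Among the complex II genes Sdhd, a membrane anchor subunit, had a mean of 1.26 CPM. Of the complex IV isoforms, Cox4i1, the common form of subunit 4, had a mean of 166 CPM per kb, and Cox4i2, its alternative form, 4.72. Of the other alternative isoforms, Cox6b2, known for its expression in testis, had 9.73 CPM per kb, and Ndufa4l2, described below, 12.6. Ndufa4, a complex IV subunit that carries a complex I name, had 105 CPM per kb. The isoforms Cox7b2 and Cox8c were not analysed here.

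The question of the 0-day joints is whether the strains differ before any injury. The mean log2 CPM of the 89 genes was 6.30, 6.22, 6.32 and 6.05 in the 4 C57BL/6 libraries, 6.72, 6.53, 6.63 and 6.55 in MRL/MpJ, and 6.70, 6.74, 6.71 and 6.93 in STR/ort. The 4 C57BL/6 joints were thus the lowest of the 12, while MRL/MpJ and STR/ort overlapped. The same order of group means held in each complex. Complex I had means of 5.91 ± 0.13 in C57BL/6, 6.31 ± 0.09 in MRL/MpJ and 6.46 ± 0.09 in STR/ort (SD, n = 4 each), and complex IV had 6.04 ± 0.11, 6.25 ± 0.07 and 6.53 ± 0.15. Complex V had 6.87 ± 0.11, 7.37 ± 0.09 and 7.45 ± 0.11.

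**Figure D1:**
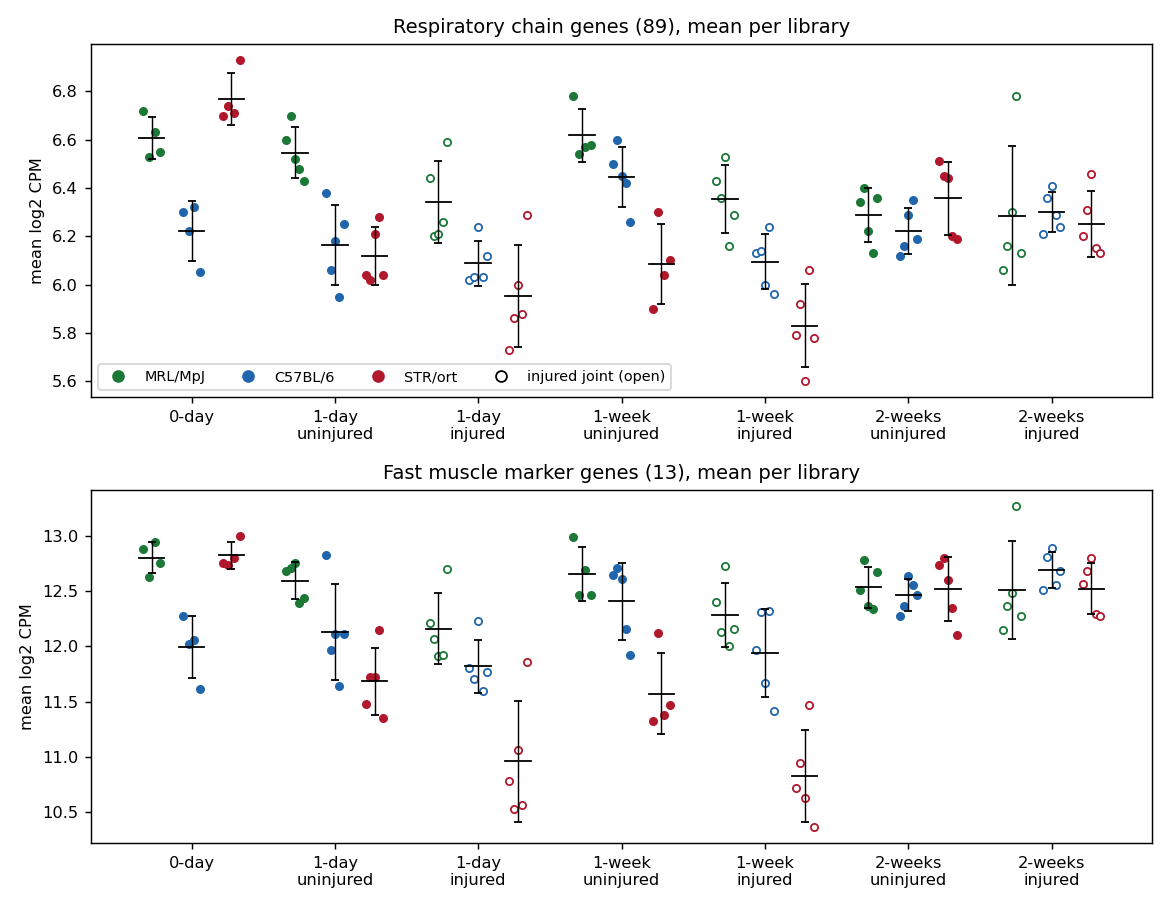
Mean log2 CPM per library of the 89 respiratory chain genes (top) and of 13 fast-fibre muscle marker genes (bottom), by time and injury; each point is a library, colours are strains, open points are injured joints, and bars give the group mean and SD. At 0-day the C57BL/6 points lie below those of both other strains in the top panel, the mean of uninjured STR/ort joints is 6.77 at 0-day and 6.12 at 1-day, and that of the muscle genes 12.83 and 11.68.

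STR/ort exceeded C57BL/6 at 0-day in 40 of the 89 genes, and 0 were called lower (called: adjusted p under 0.05 in edgeR's quasi-likelihood test and a change over 1.5-fold). Across all genes 13.8% were called in this comparison, 7.82% as higher. At adjusted p under 0.05 with any fold, 72 of the 89 were higher, against 15.2% of all genes, and the median log2 fold change of the 89 was 0.55. The called genes were 20 of 43 in complex I (6 of the 7 core subunits, 13 of 29 supernumerary subunits and 1 of 7 assembly factors), 1 of 4 in complex II, 5 of 7 in complex III, 6 of 18 in complex IV and 8 of 17 in complex V (Atp5sl among them). The smallest adjusted p was that of Ndufaf5, an assembly factor of complex I (chromosome 2, 140170584 to 140218965, GRCm38). Its CPM was 23.8, 23.9, 23.1 and 18.2 in C57BL/6 and 37.7, 37.2, 40 and 43.2 in STR/ort. The STR/ort libraries were all higher, by 0.79 ± 0.09 on the log2 scale (SE; adjusted p = 3.56e-06, edgeR). Sdhb, the iron-sulfur subunit of complex II, had 157, 146, 176 and 129 CPM in C57BL/6 and 222, 256, 254 and 298 CPM in STR/ort, again without overlap, a log2 difference of 0.72 ± 0.10 (adjusted p = 2.32e-05, edgeR). Sdha did not pass the test between any pair of strains at 0-day, and Cox7a2l had a log2 difference of 0.00 between STR/ort and C57BL/6.

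Fast-fibre muscle genes moved the same way: 11 of 13 were called higher in STR/ort (median log2 difference 0.85), and their mean log2 CPM was 11.99 ± 0.28 in C57BL/6, at most 12.28, and 12.83 ± 0.12 in STR/ort, at least 12.74 (SD, n = 4). Of the slow-fibre muscle genes 7 of 8 were called higher (median 3.06), with means of 4.84 in C57BL/6 and 7.41 in STR/ort. With the fast-fibre level of each library as a covariate in the fit, 0 of the 89 genes were called between STR/ort and C57BL/6 and their median was 0.14. The fast-fibre levels of these strains did not overlap, so this fit cannot separate muscle content from strain. With 1 factor of unwanted variation from housekeeping genes, 22 were called, and scaling to housekeeping genes also left 22. The median of the 89 genes was 0.47 in both. Without C57BL/6 replicate 4, which had the lowest level of its group, 23 were called.

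C57BL/6 was also lower than MRL/MpJ at 0-day, by a median of 0.40 on the log2 scale. In this comparison 8 genes were called, 7 lower in C57BL/6 and 1 higher, where 15.9% of all genes were called, 6.26% as lower. At any fold, 62 genes passed as lower (15.6% of all genes did) and 3 as higher. Ndufa12, a supernumerary subunit of complex I, had the smallest adjusted p of those lower: it had 91.2, 81.9, 90.6 and 71.5 CPM in C57BL/6 and 130, 121, 147 and 126 CPM in MRL/MpJ. These libraries did not overlap, and the log2 difference was -0.60 ± 0.09 (adjusted p = 2.96e-05, edgeR). The gene called higher was Cox4i2, the alternative subunit 4, known for its expression in lung and vascular smooth muscle, with 3.35, 5.87, 4.57 and 6.38 CPM in C57BL/6 and 3.59, 3.02, 1.72 and 1.9 CPM in MRL/MpJ (log2 difference 0.94 ± 0.26, adjusted p = 0.0079, edgeR). The ranges of Cox4i2 overlapped slightly. The count of 8 became 13 to 23 without C57BL/6 replicate 1 (14) or 3 (17) or MRL/MpJ replicate 2 (23) or 4 (13). Fast-fibre genes were lower as well, with 12 of 13 called (median -0.80) and library means of 11.61 to 12.28 in C57BL/6 and 12.63 to 12.95 in MRL/MpJ, and 3 of 8 slow-fibre genes were called lower (median -1.02). With the fast-fibre covariate 2 respiratory chain genes were called and the median was 0.02. These fast-fibre levels did not overlap either, so the covariate fit cannot separate muscle content from strain.

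STR/ort and MRL/MpJ differed at 0-day in 3 called genes, all higher in STR/ort, against 14.8% of all genes called and 8.34% as higher, and the median was 0.14. They were Ndufa4l2, Cox5b and Cox6a2, and Cox5b rested on part of its group: STR/ort replicates had 439, 503, 1380 and 1300 CPM, MRL/MpJ 450, 463, 409 and 382. The log2 difference of Cox5b was 1.09 ± 0.28 (adjusted p = 0.00586, edgeR), although STR/ort replicate 1 lay within the MRL/MpJ range. The count was 5 or 6 without MRL/MpJ replicate 1 (5), STR/ort replicate 1 (6) or STR/ort replicate 2 (5), and 1 with the factor of unwanted variation.

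In uninjured contralateral joints the order of the strains was different. At 1-day, mean log2 CPM of the 89 genes was 6.04, 6.02, 6.21, 6.28 and 6.04 in STR/ort, close to C57BL/6 (6.16 ± 0.17, SD, n = 5) and below MRL/MpJ (6.55 ± 0.11). STR/ort differed from MRL/MpJ in 21 called genes, 20 of them lower, where 22.6% of all genes were called and 9.54% as lower. At any fold 60 of the 89 were lower (22.6% of all genes). C57BL/6 differed from MRL/MpJ in 13 called genes, all lower, against 14.8% of all genes called and 5.81% as lower. In both comparisons the smallest adjusted p was that of Atp5h, a peripheral stalk subunit of ATP synthase. Atp5h had 487, 498, 535, 433 and 513 CPM in MRL/MpJ, 308, 241, 313, 345 and 309 in C57BL/6 and 284, 292, 297, 325 and 273 in STR/ort. The MRL/MpJ libraries were apart from all others, by -0.70 ± 0.07 for STR/ort (adjusted p = 4.49e-09) and -0.67 ± 0.07 for C57BL/6 (adjusted p = 2.28e-08, both edgeR, log2 scale). Against C57BL/6, STR/ort differed at 1-day in Ndufa4l2 alone, against 10.5% of all genes, and the median of -0.04 was 0.16 with the factor of unwanted variation. Fast-fibre genes had group means of 11.68 in STR/ort, 12.13 in C57BL/6 and 12.60 in MRL/MpJ, and STR/ort was lower than MRL/MpJ in 10 of 13 by the same call. Slow-fibre genes ran the other way for STR/ort, with means of 6.50 in STR/ort, 5.01 in C57BL/6 and 5.50 in MRL/MpJ, and STR/ort was higher by that call in 6 of 8 against C57BL/6 and 4 of 8 against MRL/MpJ (medians 1.73 and 1.29). With the fast-fibre covariate, 1 gene was called for STR/ort against MRL/MpJ and 2 for C57BL/6 against MRL/MpJ. The factor of unwanted variation left 1 in each. Fast-fibre levels of STR/ort and MRL/MpJ did not overlap at 1-day, so the covariate fit cannot separate muscle content from strain in that pair. The median of the 89 genes was -0.43 for STR/ort against MRL/MpJ, -0.09 with the covariate and -0.02 with the factor, and for C57BL/6 against MRL/MpJ it was -0.40, -0.24 and -0.19. Housekeeping scaling gave 37 for STR/ort against MRL/MpJ, 36 of them lower. The count of 13 fell to 6 without C57BL/6 replicate 2 and to 7 without C57BL/6 replicate 4, MRL/MpJ replicate 1 or MRL/MpJ replicate 2.

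At 1-week, STR/ort uninjured joints had the lowest group mean. Their mean log2 CPM was 5.90, 6.30, 6.04 and 6.10, against 6.50, 6.60, 6.45, 6.42 and 6.26 in C57BL/6 (6.45 ± 0.13, SD, n = 5) and 6.54 to 6.78 in MRL/MpJ (6.62 ± 0.11, n = 4). All STR/ort joints lay below all MRL/MpJ joints, while the highest STR/ort joint lay within the C57BL/6 range. Against MRL/MpJ 43 genes were called, 41 of them lower in STR/ort, where 24.4% of all genes were called and 10.7% as lower, and the median of the 89 was -0.58. Against C57BL/6 19 genes were called, 17 lower, where 22.2% were called in all and 9.12% as lower, and the median was -0.37. Of these 17, 3 were in complex I, 2 in complex II, 2 in complex III, 5 in complex IV and 5 in complex V. The genes higher in STR/ort were Ndufa4l2 and Cox4i2 in both comparisons. C57BL/6 was lower than MRL/MpJ in 2 called genes, Uqcrq and Atp5d, where 8.53% of all genes were called and 4% as lower.

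Single genes are given as examples. All but Sdha were picked by their adjusted p in these same comparisons, so their separation follows from that choice. Sdha, the flavoprotein of complex II, had 420, 564, 449 and 504 CPM in 1-week uninjured STR/ort and 876, 1100, 937, 747 and 714 CPM in C57BL/6. The groups did not overlap, and the log2 difference was -0.84 ± 0.13 (adjusted p = 6.23e-06, edgeR). Cox7c, a small subunit of complex IV, had 18.3, 21.8, 25.2 and 21.5 CPM in STR/ort and 45.5, 44.9, 41.8, 38.5 and 39.6 CPM in C57BL/6, a log2 difference of -0.93 ± 0.12 (adjusted p = 3.51e-07, edgeR). Uqcrc1, a core protein of complex III, separated STR/ort from MRL/MpJ with the smallest adjusted p of those lower: it had 142, 212, 163 and 170 CPM against 374, 330, 291 and 324 CPM, a log2 difference of -0.92 ± 0.11 (adjusted p = 8.8e-08, edgeR). Of the C57BL/6 and MRL/MpJ pair, Uqcrq, a small subunit of complex III, had 118, 110, 109, 186 and 141 CPM in C57BL/6 and 266, 238, 176 and 233 CPM in MRL/MpJ, with the highest C57BL/6 joint inside the MRL/MpJ range (log2 difference -0.78 ± 0.18, adjusted p = 0.00225, edgeR).

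Other tissue markers differed between STR/ort and C57BL/6 at 1-week as well, where 7 of 13 fast-fibre genes were called lower (median -0.79), 0 of 8 slow-fibre genes were called, and 8 of 8 cartilage genes and 8 of 8 synovial and tendon fibroblast genes were called higher. Against MRL/MpJ, 13 of 13 fast-fibre genes were called lower in STR/ort (median -0.95), with library means of 11.32 to 12.12 in STR/ort and 12.47 to 12.99 in MRL/MpJ. Slow-fibre genes had the opposite direction there: 3 of 8 were called higher in STR/ort and 0 lower (median 0.95), with library means of 5.37 to 7.35 against 4.88 to 6.02. With the fast-fibre covariate 4 respiratory chain genes were called against C57BL/6 (3 lower) and 4 against MRL/MpJ (3 lower). The factor of unwanted variation left 8 and 11, and housekeeping scaling gave 39 against C57BL/6. The median of -0.37 against C57BL/6 became -0.12 with the covariate and -0.03 with the factor, and that of -0.58 against MRL/MpJ became -0.17 and -0.11. As fast-fibre levels of STR/ort and MRL/MpJ did not overlap here, the covariate fit cannot separate muscle content from strain in that pair. Without STR/ort replicate 1 the count of 19 fell to 12.

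At 2-weeks, in batch 2, the uninjured strains were close. Mean log2 CPM was 6.22 ± 0.09 in C57BL/6, 6.29 ± 0.11 in MRL/MpJ and 6.36 ± 0.15 in STR/ort (SD, n = 5 each). By edgeR 0 of the 89 genes were called between C57BL/6 and MRL/MpJ (9.83% of all genes were; 5 of the 89 had an unadjusted p under 0.05) and 0 between STR/ort and C57BL/6 (9.78%; 17 of the 89), and DESeq2 gave 0 in both. For STR/ort against MRL/MpJ 3 were called, where 13.8% of all genes were. Atp5sl, listed by RefSeq as Dmac2 and known as an assembly factor of complex I, had 44, 48.7, 44.4, 36.2 and 40.2 CPM in STR/ort and 22.9, 24.7, 23.4, 21.7 and 21.6 CPM in MRL/MpJ, without overlap (log2 difference 0.89 ± 0.11, adjusted p = 2.46e-07, edgeR). Cox6b2 had 6.1, 5.74, 6.98, 7.39 and 6.4 CPM in STR/ort and 12.3, 12.5, 11.9, 12.1 and 9.92 CPM in MRL/MpJ, also without overlap (-0.85 ± 0.14, adjusted p = 1.33e-05, edgeR). The other gene was Ndufa4l2, at 0.64 ± 0.19 (adjusted p = 0.00693, edgeR). A single gene was called in C57BL/6 against MRL/MpJ without C57BL/6 replicate 2 or MRL/MpJ replicate 5, and in STR/ort against C57BL/6 without STR/ort replicate 5.

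The change of order from 0-day to 1-week was tested directly in a comparison added after these values had been seen. It fitted the 40 uninjured libraries of batch 1 together and compared each strain's later uninjured joints with its own 0-day joints. In MRL/MpJ, edgeR called 0 of the 89 genes at 1-day and 0 at 1-week, where 0.0867% and 0% of all genes were called. DESeq2 gave 0 in both, 0 and 1 of the 89 had an unadjusted p under 0.05, and the medians were -0.07 and -0.01. In C57BL/6, 0 were called at 1-day (0.0635% of all genes, DESeq2 0, unadjusted p under 0.05 in 1 of the 89) and 2 at 1-week, both lower (5.69% of all genes), with medians of -0.05 and 0.24. In STR/ort, 51 genes were called at 1-day, all lower, with 10% of all genes called and 6.94% as lower, and 56 at 1-week, 55 of them lower, with 13.8% called and 7.46% as lower. The STR/ort medians were -0.64 and -0.71. The change differed between STR/ort and C57BL/6 in 43 genes at 1-day (42 lower in STR/ort, with 9.23% of all genes called and 5.59% as lower) and in 71 at 1-week (69 lower, with 21.6% called and 9.21% as lower). The 0-day joints serve as the base of both time points, so these counts are not independent of each other.

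Cox6a2, the muscle isoform of complex IV subunit 6a, had in STR/ort 277, 334, 454 and 588 CPM at 0-day, 97, 96.9, 128, 167 and 77 CPM in uninjured joints at 1-day and 83.2, 137, 92.1 and 95.9 CPM at 1-week. All later joints lay below all 0-day joints, by -1.84 ± 0.22 at 1-day (adjusted p = 1.1e-07) and -1.99 ± 0.23 at 1-week (adjusted p = 4.83e-08, both edgeR, log2 scale). Cox5b dropped by 1.94 ± 0.30 at 1-day (adjusted p = 5.9e-06, edgeR), from 439 to 1380 CPM at 0-day to 204, 159, 323, 302 and 163 CPM. Ndufa4l2 went the other way, 0.46 ± 0.16 at 1-day (adjusted p = 0.0258, not past the 1.5-fold limit) and 1.01 ± 0.16 at 1-week (adjusted p = 7.08e-06, both edgeR, log2 scale).

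In STR/ort all 13 fast-fibre genes were called lower at both times (medians -1.09 and -1.15), and 2 and 3 of the 8 slow-fibre genes. In C57BL/6 6 of 8 slow-fibre genes were called higher at 1-week than at 0-day (median 1.98) and 0 of 13 fast-fibre genes. With the fast-fibre covariate 5 and 3 respiratory chain genes were called in STR/ort over time, and 1 and 6 in the difference from C57BL/6. With the factor of unwanted variation these counts were 1 and 7 in STR/ort, and 1 and 27 in the difference. The STR/ort medians of -0.64 and -0.71 were -0.18 and -0.19 with the covariate and -0.29 and -0.37 with the factor. The count of 2 in C57BL/6 became 5 without 1-week replicate 5, 0 without 0-day replicate 4, and 1 without 0-day replicate 2 or 1-week replicate 1 or 3. The fast-fibre levels of 0-day and later STR/ort joints did not overlap, so the covariate fit cannot separate muscle content from time. What set the 0-day and the later STR/ort joints apart in muscle genes was not tested.

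**Figure D2:**
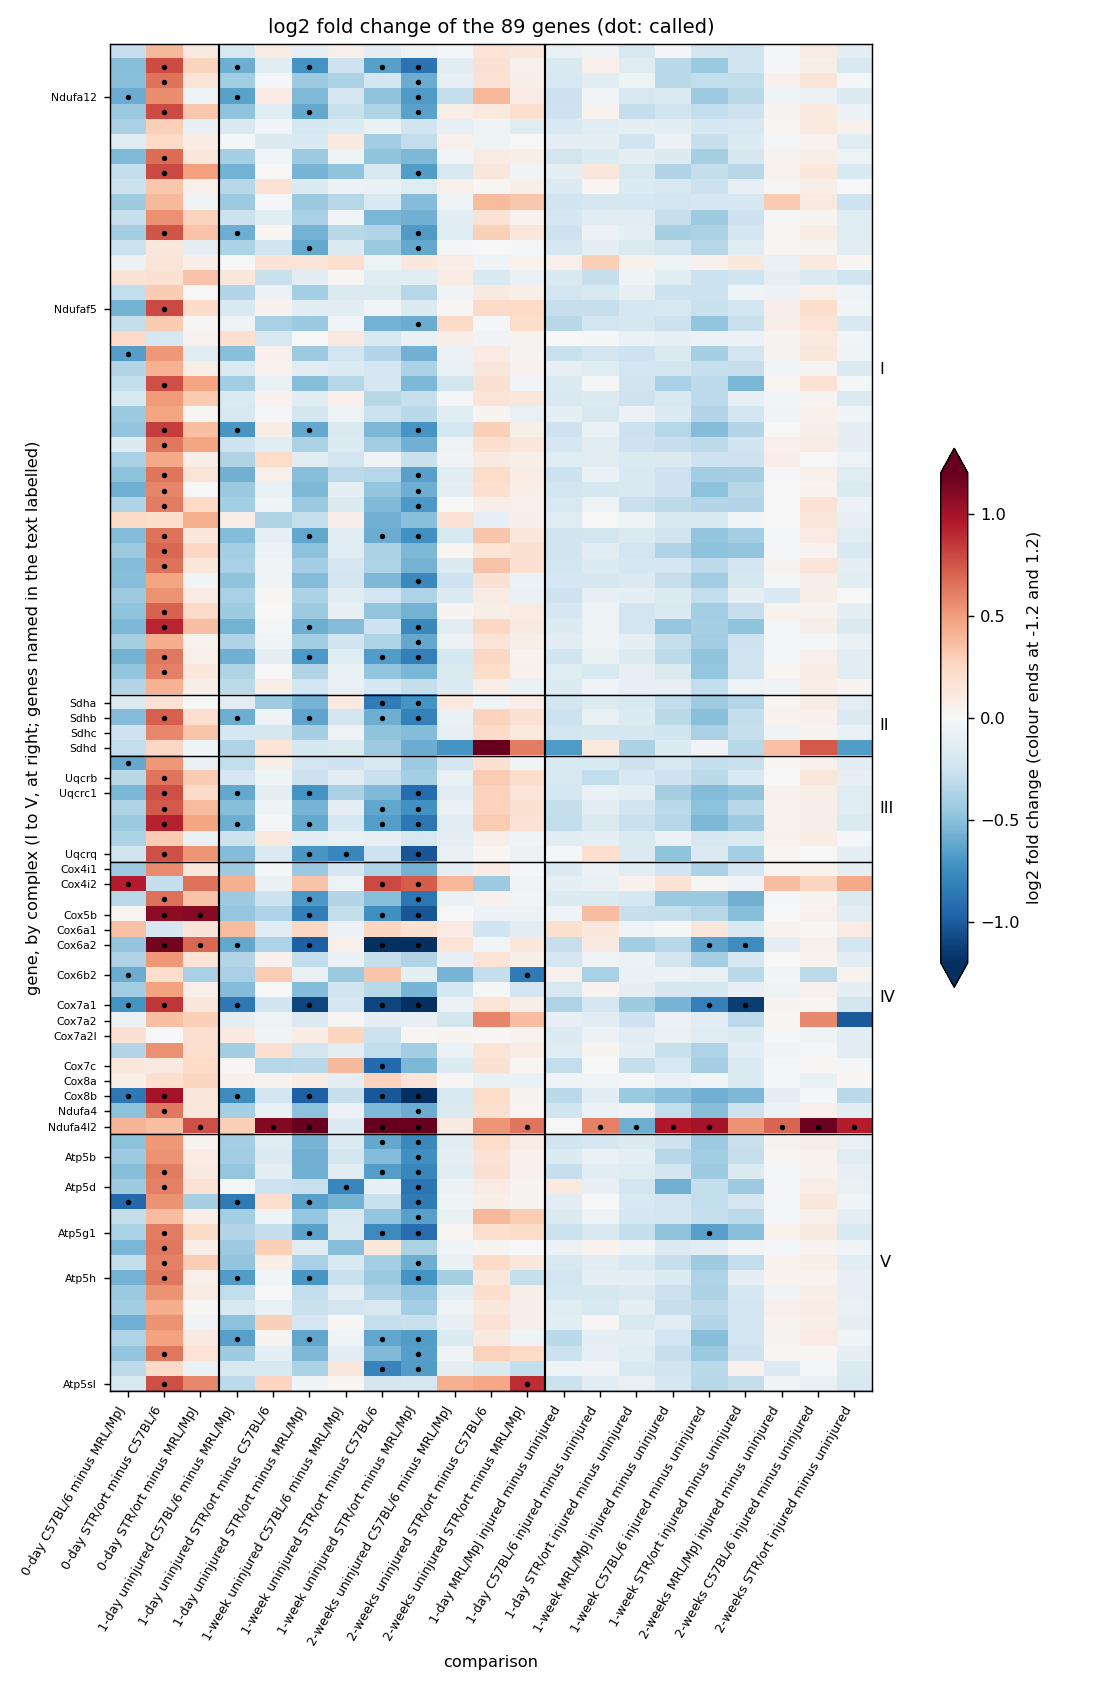
Log2 fold change of each of the 89 genes (rows, by complex, with labels for genes named in the text) in the 12 strain comparisons of uninjured joints and the 9 injury comparisons (columns); red is higher, blue lower, and a dot marks a called gene. The column for 0-day STR/ort against C57BL/6 is red with 40 dots, the columns for 1-week uninjured STR/ort are mostly blue with 19 and 43 dots, and the injury columns are pale, with dots at Ndufa4l2, Cox6a2, Cox7a1 and Atp5g1.

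Injury changed few respiratory chain genes by more than 1.5-fold. At 1-day, 1 gene was called in C57BL/6 (5.6% of all genes were called), 0 in MRL/MpJ (2.02%; 27 of the 89 had an unadjusted p under 0.05, and DESeq2 gave 0) and 1 in STR/ort (4.31%), and the gene was Ndufa4l2 in both strains. At 1-week, 4 were called in C57BL/6 (5.82%), 1 in MRL/MpJ (3.13%) and 2 in STR/ort (9.21%). At 2-weeks 1 gene was called in C57BL/6 (2.95%), 1 in MRL/MpJ (1.16%) and 1 in STR/ort (4.66%), each time Ndufa4l2, and 2 were called in STR/ort without injured replicate 3 or uninjured replicate 2. The 2-weeks response compared between strains gave 0 called genes by edgeR and by DESeq2 (0 or 1 of the 89 had an unadjusted p under 0.05), where 0.451%, 0.0462% and 0% of all genes were called for STR/ort against MRL/MpJ, STR/ort against C57BL/6 and C57BL/6 against MRL/MpJ.

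At 1-week in C57BL/6, 42 of the 89 genes were lower in injured joints at adjusted p under 0.05 with any fold and 1 was higher, where 3.3% of all genes were lower. In MRL/MpJ 4 were lower and 1 higher (0.416% of all genes lower), and in STR/ort 18 were lower and 1 higher (10.2% lower). The fold changes of 85, 87 and 86 of the 89 genes were below 0 in C57BL/6, MRL/MpJ and STR/ort, where 52.5%, 51.2% and 54.4% of all genes were, with medians of -0.35, -0.24 and -0.24. In the same order of strains 73, 84 and 87 of the 89 were below 0 at 1-day (53.4%, 48.1% and 54.1% of all genes), and 11, 41 and 80 at 2-weeks (49%, 53.7% and 51.7%). Compared between strains, the 1-week response gave 0 called genes in each of the 3 comparisons by edgeR and 0 by DESeq2 (0 or 1 of the 89 had an unadjusted p under 0.05), where 0.884%, 0.491% and 0% of all genes were called for STR/ort against MRL/MpJ, STR/ort against C57BL/6 and C57BL/6 against MRL/MpJ. So the larger number in C57BL/6 was not shown to be a difference between strains. Every injured joint lay below every uninjured joint for 23 of the 89 genes in C57BL/6, 17 in MRL/MpJ and 1 in STR/ort, and for 3.47%, 2.99% and 5% of all genes.

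By complex, the C57BL/6 decreases at 1-week comprised 19 of 43 genes of complex I (6 of the 7 core subunits, 11 of 29 supernumerary subunits, 2 of 7 assembly factors), 3 of 4 of complex II, 3 of 7 of complex III, 7 of 18 of complex IV and 10 of 17 of complex V. Sdha had 614, 733, 620, 700 and 518 CPM in injured and 876, 1100, 937, 747 and 714 CPM in uninjured joints, a log2 change of -0.43 ± 0.12 (adjusted p = 0.0167, edgeR), with a small overlap of the groups. Sdhb changed by -0.50 ± 0.12 (adjusted p = 0.00341) and Sdhc, a membrane anchor of complex II, by -0.39 ± 0.11 (adjusted p = 0.0133, both edgeR, log2 scale). Atp5g1, a gene for subunit c of the ATP synthase rotor, led the called decreases by adjusted p. It had 45.6, 42.6, 38.2, 54.2 and 49.1 CPM in injured and 83.4, 87.8, 61.5, 75 and 61 CPM in uninjured joints, without overlap (log2 change -0.65 ± 0.15, adjusted p = 0.00221, edgeR). Cox4i1 changed by -0.38 ± 0.08 (adjusted p = 0.00083, edgeR, log2 scale).

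Muscle marker genes were counted in the same joints. Of the 13 fast-fibre genes, 2 were called lower in C57BL/6 (median -0.47), 0 in MRL/MpJ (median -0.36) and 11 in STR/ort (median -0.81). The mean log2 CPM of the 13 genes ran from 11.41 to 12.32 in injured and 11.92 to 12.71 in uninjured C57BL/6 joints, and from 10.36 to 11.47 and 11.32 to 12.12 in STR/ort. Of the 8 slow-fibre genes, 6, 0 and 4 were called lower in C57BL/6, MRL/MpJ and STR/ort. Synovial and tendon fibroblast genes were called higher, 8, 7 and 6 of 8. Of all 17310 genes, 185, 33 and 612 were called lower and 822, 508 and 982 higher, in the same order of strains. With the fast-fibre covariate the medians of the 89 genes became -0.18, -0.11 and 0.04, and the counts called became 1, 1 and 0. The count of 4 in C57BL/6 was 2 without injured replicate 3 or 5 or uninjured replicate 1 or 2, 7 without injured replicate 4 and 8 without uninjured replicate 5, and it was 2 with the factor of unwanted variation. The count of 2 in STR/ort was 4 without injured replicate 2, 8 without injured replicate 4 and 5 without uninjured replicate 1. It was 4 with a term for replicate number, although the labels do not say whether joints of 1 number share an animal there. The count of 1 in MRL/MpJ was 2 without uninjured replicate 3 and 3 with the factor of unwanted variation. At 2-weeks the medians of the 89 genes were 0.07 in C57BL/6, 0.00 in MRL/MpJ and -0.12 in STR/ort, and fast-fibre means were between 12.47 and 12.69 in the 6 groups.

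Ndufa4l2 differed in direction from most of the 89 genes at 1-week. It encodes a paralogue of the complex IV subunit Ndufa4 that is known to be induced by hypoxia-inducible factor 1 and to restrain oxygen use (chromosome 10, 127509274 to 127517154, GRCm38). It passed the test as higher in injured joints in 7 of the 9 comparisons and as lower in 1, and it was called higher in 6 and lower in 1. No other gene of the 89 passed in more than 3, as Uqcrc1 and Ndufs7 did, or was called in more than 2. In 1-week C57BL/6 it had 13.3, 9.44, 9.72, 11.6 and 16.3 CPM in injured and 7.16, 6.3, 6.71, 5.43 and 5.31 CPM in uninjured joints. All injured joints were higher, by 1.00 ± 0.17 on the log2 scale (adjusted p = 6.54e-05, edgeR). In 1-week MRL/MpJ it had 11.7, 11.4, 13.5, 14.6 and 14.4 CPM against 7.12, 7.81, 5.74 and 7.03 CPM, also apart (0.96 ± 0.18, adjusted p = 5e-04, edgeR). In 1-week STR/ort it had 42.7, 40.1, 28.4, 28 and 44.2 CPM against 29, 27.2, 19.1 and 25.6 CPM, with overlap (0.54 ± 0.15, adjusted p = 0.00871, edgeR, below the 1.5-fold limit). At 2-weeks the log2 changes were 1.18 ± 0.18 in C57BL/6 (adjusted p = 2.42e-05), 0.94 ± 0.17 in STR/ort (adjusted p = 0.000123) and 0.70 ± 0.18 in MRL/MpJ (adjusted p = 0.0348, all edgeR). The MRL/MpJ call at 2-weeks was lost without injured replicate 1, 2, 4 or 5 or uninjured replicate 2, 3, 4 or 5, with a log2 change of 0.60 to 0.79 over all omissions, although its injured joints (10.6 to 19.1 CPM) lay above the uninjured ones (7.27 to 9.8 CPM).

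At 1-day Ndufa4l2 differed between the strains. It had 13.7, 11.3, 9.59, 14.6 and 11.2 CPM in injured C57BL/6 joints against 9.99, 6.35, 7.94, 7.96 and 8.07 CPM in uninjured ones, and 9.57, 13.7, 8.07, 10.8 and 15.7 CPM in injured STR/ort joints against 13, 24.2, 13.8, 19 and 15.7 CPM. The groups overlapped in both strains. The log2 changes were 0.60 ± 0.18 (adjusted p = 0.0197) in C57BL/6 and -0.59 ± 0.17 (adjusted p = 0.0223) in STR/ort, and -0.00 ± 0.20 (adjusted p = 1) in MRL/MpJ. The difference of the STR/ort and C57BL/6 responses was -1.19 ± 0.25 (adjusted p = 0.00354, edgeR), in a comparison where 2.66% of all genes and 1 of the 89 were called. That difference was between -1.32 and -1.04 with any library left out, and 1 more gene was called without STR/ort injured replicate 5. The C57BL/6 call was lost without injured replicate 1 (0.55) or 4 (0.51), without uninjured replicate 2 (0.53) and with housekeeping scaling (0.54). The STR/ort call was lost without injured replicate 1 (-0.53), 3 (-0.48) or 4 (-0.57), without uninjured replicate 2 (-0.44) or 4 (-0.54), with the factor of unwanted variation (-0.50) and with the fast-fibre covariate (-0.41), and 4 genes were called without injured replicate 5. For STR/ort against MRL/MpJ and for C57BL/6 against MRL/MpJ 0 genes were called at 1-day by edgeR or DESeq2 (1 and 2 of the 89 at an unadjusted p under 0.05, and 0.162% and 0.318% of all genes called).

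Ndufa4l2 also differed between the strains without injury. In the comparison of STR/ort with MRL/MpJ it was the only one of the 89 genes called in the same direction at all 4 times. The share of all genes called in this way was not counted. At 0-day it had 7.09, 6.16, 9.3 and 7.93 CPM in MRL/MpJ and 13.3, 10.1, 14.8 and 12.5 CPM in STR/ort, without overlap (0.77 ± 0.16, adjusted p = 0.000948, edgeR, log2 scale). The log2 difference was 1.39 at 1-day, 1.88 at 1-week and 0.64 at 2-weeks. From C57BL/6, STR/ort differed by 0.36 at 0-day (adjusted p = 0.0598), 1.10 at 1-day (adjusted p = 1.82e-05), 2.04 at 1-week (adjusted p = 6.71e-11) and 0.53 at 2-weeks (adjusted p = 0.0331, all edgeR), and the 0-day and 2-weeks differences were not called.

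**Figure D3:**
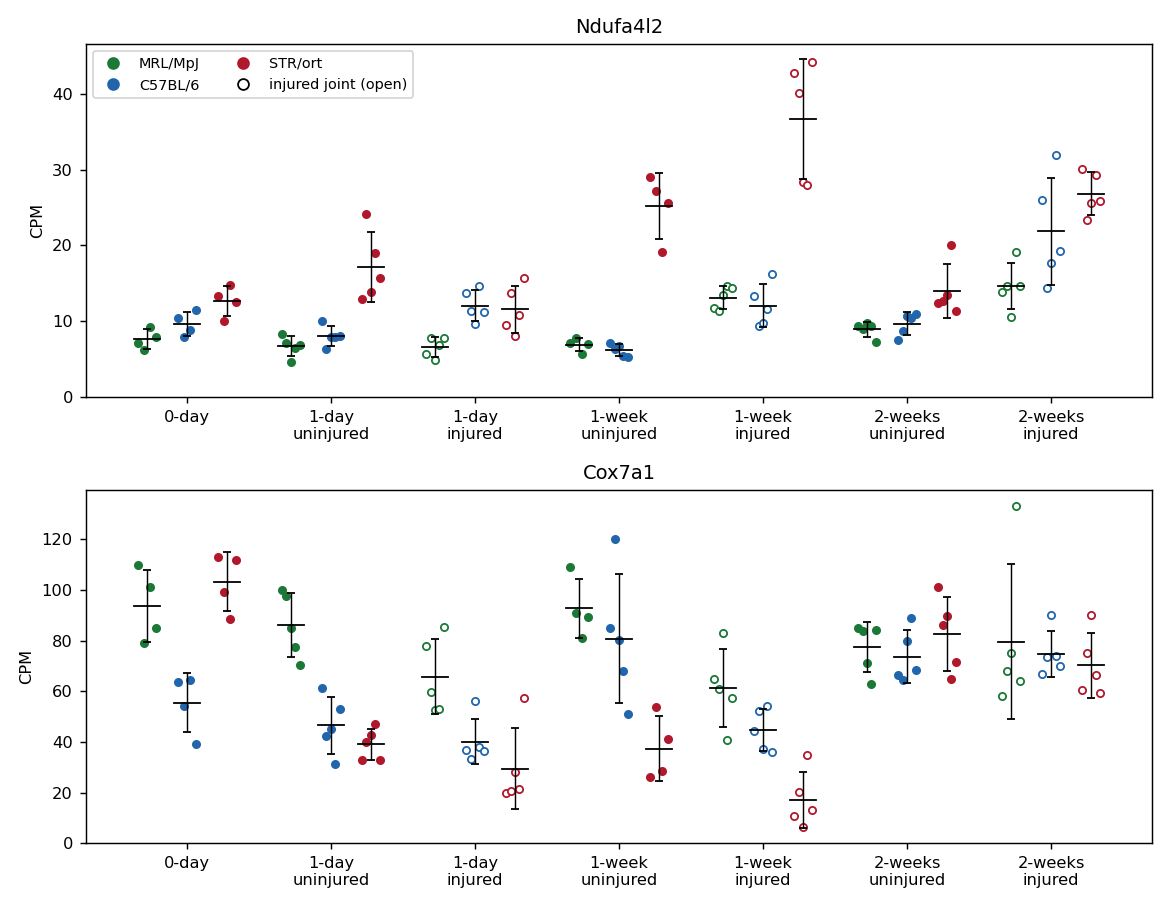
CPM of Ndufa4l2 (top) and of the muscle isoform Cox7a1 (bottom) in each library by time and injury, with colours for strains, open points for injured joints and bars for the group mean and SD. Ndufa4l2 reaches 44.2 CPM in 1-week injured STR/ort joints, where Cox7a1 ranges from 6.33 to 35 CPM.

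The muscle isoforms of complex IV, Cox6a2, Cox7a1 and Cox8b, replace the ubiquitous Cox6a1, Cox7a2 and Cox8a in the enzyme of heart and skeletal muscle. The 250 bases before the annotated start are shown for Cox7a1 and Cox8b and for the ubiquitous Cox6a1 and Cox8a. Of these, Cox8b and Cox8a are partners, while Cox7a1 and Cox6a1 belong to different pairs. Sequences are from RefSeq, GRCm38.p6, and capitals mark matches to the motifs named after them.
Cox7a1, chr7:30183921-30184170, plus strand: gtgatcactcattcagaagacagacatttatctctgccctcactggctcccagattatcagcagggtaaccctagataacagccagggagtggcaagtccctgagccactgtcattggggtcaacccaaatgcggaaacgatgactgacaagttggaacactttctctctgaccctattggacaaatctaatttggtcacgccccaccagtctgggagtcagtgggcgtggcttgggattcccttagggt
Cox8b, chr7:140900447-140900696, minus strand: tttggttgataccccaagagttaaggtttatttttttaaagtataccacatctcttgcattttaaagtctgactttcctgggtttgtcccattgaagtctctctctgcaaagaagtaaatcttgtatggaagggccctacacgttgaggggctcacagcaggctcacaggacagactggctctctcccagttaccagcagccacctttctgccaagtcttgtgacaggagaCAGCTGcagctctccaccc
Cox6a1, chr5:115348959-115349208, minus strand: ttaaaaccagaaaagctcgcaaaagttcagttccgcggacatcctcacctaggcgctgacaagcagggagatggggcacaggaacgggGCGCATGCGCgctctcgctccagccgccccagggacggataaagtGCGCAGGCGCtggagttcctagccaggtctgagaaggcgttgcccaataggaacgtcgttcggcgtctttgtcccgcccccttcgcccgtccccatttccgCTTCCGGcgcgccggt
Cox8a, chr19:7217617-7217866, minus strand: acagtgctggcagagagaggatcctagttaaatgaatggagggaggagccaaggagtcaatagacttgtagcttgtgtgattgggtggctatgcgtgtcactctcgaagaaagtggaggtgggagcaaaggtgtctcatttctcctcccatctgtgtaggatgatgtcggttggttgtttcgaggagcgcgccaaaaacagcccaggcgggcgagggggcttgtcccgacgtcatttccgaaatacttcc

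The letters searched, on both strands and from 250 bases before to 50 after the start, were the NRF1 motif (of the kind marked in the Cox6a1 sequence), AAGGTCA for estrogen-related receptors, CCGGAAG for GABP and CAGCTG for a muscle E-box. Of the 89 genes, 74 had an entry in the promoter table. NRF1 letters were found in 19 of these 74 (25.7%) and in 5.19% of 27025 genes, GABP letters in 16 (21.6%) and 9.93%, estrogen-related receptor letters in 8 (10.8%) and 5.38%, and the E-box in 6 (8.11%) and 18.3%. In Cox6a1 NRF1 letters began 162 and 117 bases before the start, and GABP letters on the other strand 16 bases before it. In Cox8b the E-box began 19 bases before the start. Cox7a1 held no match in the stretch searched, and neither did Cox7a2, its ubiquitous partner, whose sequence is not shown. Cox8a held none in the 250 bases shown, but it held GABP letters that run into or lie in the 50 bases after the start, and it is among the 16. A match is a description of the letters and not a bound site.

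All 3 muscle isoforms were among the genes called between STR/ort and C57BL/6 at 0-day. Cox7a1 (chromosome 7, 30184171 to 30186030) had 63.5, 54.2, 64.6 and 39.4 CPM in C57BL/6, 113, 99.3, 88.5 and 112 CPM in STR/ort and 110, 78.9, 101 and 85 CPM in MRL/MpJ. C57BL/6 was apart from both, by 0.86 ± 0.13 for STR/ort (adjusted p = 7.72e-05) and -0.72 for its own difference from MRL/MpJ (adjusted p = 0.000394, both edgeR, log2 scale). Cox8b had 49.5, 45.8, 53.1 and 34.3 CPM in C57BL/6 and 90.7, 88.6, 72.4 and 126 CPM in STR/ort, a log2 difference of 1.00 ± 0.15 (adjusted p = 5.16e-05, edgeR). Cox6a2 had 203, 174, 235 and 110 CPM in C57BL/6 and 277, 334, 454 and 588 CPM in STR/ort, a log2 difference of 1.15 ± 0.21 (adjusted p = 0.000318, edgeR).

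Of the ubiquitous partners, Cox7a2 passed as higher in STR/ort at 0-day, below the 1.5-fold limit (0.36 ± 0.09, adjusted p = 0.00401, edgeR, log2 scale). Cox6a1 had 38, 36.2, 38.9 and 38.4 CPM in C57BL/6 and 37, 33.4, 27.1 and 37.6 CPM in STR/ort, and Cox8a had 55.2, 50.3, 60.4 and 61.2 CPM against 58.2, 63.7, 67.1 and 78.7 CPM. Both pairs of ranges overlapped, and neither gene passed the test between these strains. The mean log2 ratio of muscle over ubiquitous isoform in STR/ort exceeded that in C57BL/6 by 1.36 for Cox6a2 over Cox6a1, 0.52 for Cox7a1 over Cox7a2 and 0.80 for Cox8b over Cox8a. The differences of C57BL/6 from MRL/MpJ in the same ratios were -0.87, -0.67 and -0.95. None of these 6 pairs of groups overlapped, and each two-sided exact permutation test gave p = 0.0286, the smallest that 4 against 4 libraries allow. Over the 36 ratio comparisons made, the adjusted p was 0.127 for these 6, and 0 of the 36 passed.

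At 1-week the order was reversed in uninjured joints. STR/ort was below C57BL/6 for Cox6a2 (-1.34 ± 0.20, adjusted p = 2.48e-06), Cox7a1 (-1.10 ± 0.29, adjusted p = 0.00267) and Cox8b (-1.02 ± 0.23, adjusted p = 0.000523, all edgeR, log2 scale). Injured joints had lower levels of Cox6a2 and Cox7a1 in STR/ort and C57BL/6. In 1-week STR/ort, Cox7a1 had 10.8, 20.1, 6.33, 35 and 13.2 CPM in injured and 26.3, 53.9, 28.4 and 41 CPM in uninjured joints. A single injured joint overlapped the uninjured range, and the log2 change was -1.14 ± 0.31 (adjusted p = 0.00718, edgeR). Cox6a2 had 53.4, 74.6, 41.3, 90.9 and 43.7 CPM against 83.2, 137, 92.1 and 95.9 CPM (-0.75 ± 0.20, adjusted p = 0.00552, edgeR), again with 1 injured joint in the uninjured range. In C57BL/6 Cox7a1 had 44.2, 52.1, 37.3, 54.3 and 36.2 CPM in injured and 84.9, 120, 80.2, 67.9 and 51.1 CPM in uninjured joints with overlap (-0.82 ± 0.26, adjusted p = 0.0395), and Cox6a2 changed by -0.64 ± 0.18 (adjusted p = 0.0154, both edgeR, log2 scale). Cox8b had log2 changes of -0.54 in STR/ort (adjusted p = 0.0999) and -0.58 in C57BL/6 (adjusted p = 0.0664, both edgeR). In MRL/MpJ the log2 changes of Cox6a2, Cox7a1 and Cox8b were -0.34, -0.56 and -0.50 with adjusted p of 0.444, 0.345 and 0.252 (edgeR). With the fast-fibre covariate the STR/ort changes became -0.21 for Cox6a2 and -0.38 for Cox7a1 and no longer passed. In C57BL/6 neither gene was called with that covariate, where 1 of the 89 genes was called higher and 0 lower.

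Genes that feed or accompany the chain, from lists chosen with earlier results of these data known, were counted in the same comparisons. For STR/ort against C57BL/6 at 0-day, 13 of 13 tricarboxylic acid cycle genes and 14 of 14 fatty acid oxidation genes passed as higher, where 15.2% of all genes did, with medians of 0.65 and 0.80. Of these 8 and 11 were called, where 7.82% of all genes were called higher. Acadm, the medium-chain acyl-CoA dehydrogenase, had a log2 difference of 1.15 ± 0.11 (adjusted p = 3.37e-07) and Suclg2, a subunit of succinyl-CoA ligase, 0.87 ± 0.07 (adjusted p = 7.97e-08, both edgeR). Of 10 chain partners outside the name rule 7 were called higher, with Cyc1, cytochrome c1 of complex III, at 0.76 ± 0.11 (adjusted p = 3.52e-05, edgeR). Nnt, the transhydrogenase that couples the proton gradient to NADPH, was at 1.89 ± 0.08 (adjusted p = 7.14e-12, edgeR). It was lower in uninjured C57BL/6 than in MRL/MpJ at all 4 times (log2 differences -1.54, -1.67, -1.40 and -1.77, all called). STR/ort was above C57BL/6 by 1.54, 1.03 and 1.82 at the later times (all called) and differed from MRL/MpJ by 0.34 at 0-day. Nnt thus set C57BL/6 apart from both other strains at every time, and its value is not one of STR/ort alone. Of 37 assembly factors outside the name rule 4 were called higher and 0 lower (median 0.33), and of 18 glycolysis genes 4 were called higher (median 0.39), beside the same 7.82% of all genes. Of 18 regulators of mitochondrial gene expression 4 were called higher, among them Ppargc1a, the coactivator that drives mitochondrial biogenesis (0.63 ± 0.17, adjusted p = 0.00659, edgeR).

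At 1-week in uninjured joints, 12 of 13 cycle genes and 12 of 14 fatty acid oxidation genes passed as lower in STR/ort than in C57BL/6, where 21% of all genes did. Ppargc1a differed by -1.96 ± 0.27 (adjusted p = 8.92e-07) and Cyc1 by -0.48 ± 0.10 (adjusted p = 0.000435, both edgeR, log2 scale). Nnt was higher in STR/ort than in C57BL/6, by 1.03 ± 0.08 (adjusted p = 5.22e-12), and lower than in MRL/MpJ, by -0.37 ± 0.08 (adjusted p = 0.000293, both edgeR). In the 1-week C57BL/6 injury comparison 10 of 13 cycle genes and 10 of 14 fatty acid oxidation genes passed as lower, where 3.3% of all genes did. The counts were 4 and 2 in STR/ort (10.2% of all genes) and 1 and 3 in MRL/MpJ (0.416%), and 0 genes of either list were called by edgeR for a difference in this response between any pair of strains (3 of the 14 fatty acid oxidation genes had an unadjusted p under 0.05 for STR/ort against C57BL/6, and 0 in the other comparisons of these lists). Of the 18 regulators, 5 were called lower at 1-week in C57BL/6, 1 in STR/ort and 0 in MRL/MpJ (6 had an unadjusted p under 0.05 there, edgeR). In the same order of strains, 185, 612 and 33 of all 17310 genes were called lower. At 1-day 1, 2 and 3 of the regulators were called lower, and 232, 467 and 86 of the 17310 genes. Ppargc1a changed at 1-day by -1.47 ± 0.27 in STR/ort (adjusted p = 0.000338) and -1.06 ± 0.20 in MRL/MpJ (adjusted p = 0.00126), while its value in C57BL/6 was -0.52 (adjusted p = 0.113, all edgeR). At 1-week its values were -0.66 in STR/ort (adjusted p = 0.137) and -0.60 in MRL/MpJ (adjusted p = 0.187, both edgeR). In 1-week C57BL/6 Ppargc1a changed by -0.80 ± 0.23 (adjusted p = 0.0182) and Esrrg, an estrogen-related receptor of oxidative tissue, by -1.56 ± 0.23 (adjusted p = 1.41e-05, both edgeR, log2 scale).

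Several respiratory chain genes had a different level in the 2-weeks batch whatever the strain or injury. For 17 of the 89 genes (19.1%) the CPM of the 70 batch 1 libraries and the 30 batch 2 libraries did not overlap, against 8.48% of all genes. Medians were more than 2-fold apart for 18 of the 89 (20.2%; 8 higher and 10 lower in batch 2), against 9.86%. The genes named here were chosen after their values were seen. Cox7a2 had a median of 48.5 CPM in batch 1 and 0.471 CPM in batch 2, from 273 to 901 and from 2 to 12 counts per library. Sdhd went from 1.81 to 0.0847 CPM and Ndufa6 from 40.8 to 5.02 CPM, while Atp5d went from 10.1 to 66 CPM, Uqcr10 from 24.9 to 96.7 CPM and Cox5a from 59 to 204 CPM. Of the 89 genes, 10 have a RefSeq pseudogene named after them with a -ps symbol, and 0 of these 10 were among the 17, against 17 of the other 79. With 10 genes, and pseudogenes of other names not counted, this cannot show whether pseudogenes matter. The cause of these shifts was not tested. Ratios over Cox7a2 at 2-weeks rest on 2 to 12 counts.

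**Figure D4:**
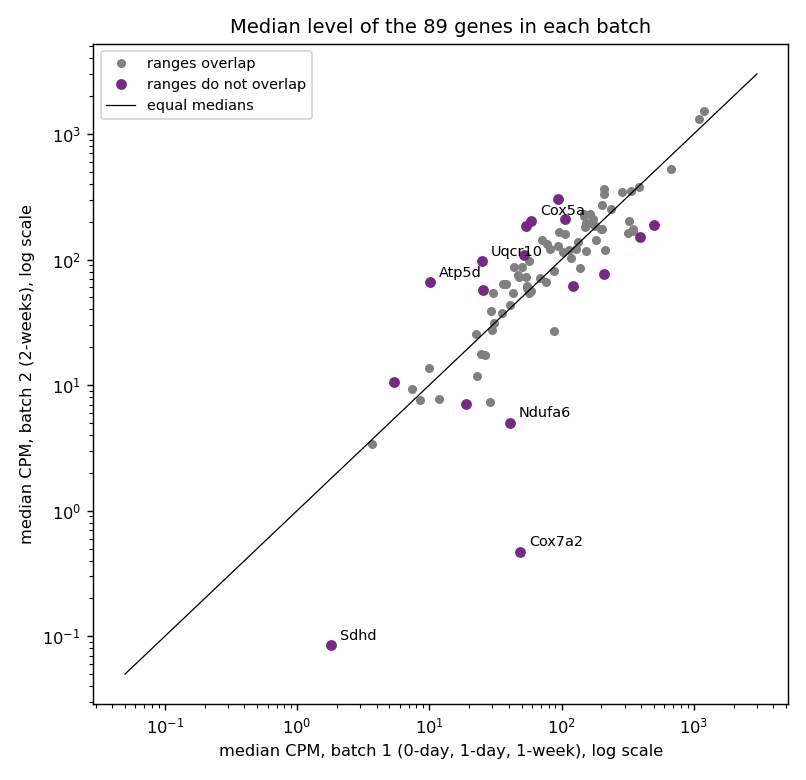
Median CPM of each of the 89 genes in batch 1 (0-day, 1-day and 1-week, horizontal) and batch 2 (2-weeks, vertical), both on log scales; the line marks equal medians and purple points are genes whose libraries do not overlap between batches. Most points lie near the line, while Cox7a2 (48.5 and 0.471 CPM), Sdhd and Ndufa6 lie far below it and Atp5d and Uqcr10 above.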

How the data were processed

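RNA-seq of whole knee joints was analysed from the deposited table of raw counts per gene for 100 libraries. Per the labels and the methods of the study, the authors mapped reads to mm10 with TopHat2 2.0.11, counted reads over RefSeq genes with featureCounts from poly(A)-enriched libraries, and kept genes with at least 2 counts in at least 5 libraries. Reads shared by near-identical copies (isoform paralogues, pseudogenes) may be assigned unevenly by such counting. Of 17313 rows, 3 repeats were dropped. The 89 genes and the marker lists were chosen with earlier results of these data known. Genes named singly were the complex IV isoforms, Cox7a2l, the Sdh genes, the highest genes of complexes II to V, per comparison and direction the first called gene by adjusted p, genes called alike at all times, and examples from the lists.

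Each time point was fitted on its own with edgeR 4.0.16 (R 4.3.3; TMM factors, quasi-likelihood test, a mean per strain and injury state), with Benjamini-Hochberg adjustment over all 17310 genes. A gene was called at adjusted p under 0.05 and a fold over 1.5. Levels are log2 CPM with TMM over all libraries and a prior count of 2, means over genes per library. Isoform ratios are log2 ratios of counts with a pseudocount of 1. Replicates are separate joints per the labels. At 2-weeks the labels give the same animal to both joints of a replicate number, with correlations of -0.16 to 0.08 in MRL/MpJ. At 1-week the labels name no animal. The correlation of 0.10 to 0.23 over 4 pairs in STR/ort there cannot show pairing. The fits were tested on simulated data. Alternatives were RLE factors, housekeeping scaling (25 genes), 1 factor of unwanted variation, DESeq2 1.42.0, another low-count filter, a fast-fibre covariate, a replicate block and omission of each library. Protein sequences were not used here. A result that the naming rule would give is not reported here.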

Additional observations from a re-analysis of the deposited data

Results flagged for a closer look

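Among 147 groups of 4 or 5 libraries checked, 7 held a library far from the others of its group by Dixon's criterion, and chance alone marks about 1 group in 20. The mean log2 CPM of the 89 genes was 6.78 in an uninjured 1-week MRL/MpJ joint and 6.54 to 6.58 in the other joints of that group. Ndufa4l2 had 20.1 CPM in an uninjured 2-weeks STR/ort joint and 11.3 to 13.5 CPM in the others. Cox7a1 stood apart in 3 groups: 56 CPM against 33.5 to 37.9 in 1-day injured C57BL/6, 57.5 against 19.9 to 28.1 in 1-day injured STR/ort, and 133 against 58 to 75.3 in 2-weeks injured MRL/MpJ. Cox8b had 51.5 CPM in a 1-day injured STR/ort joint and 18.1 to 23.9 CPM in the others. Cox6b2 had 9.92 CPM in an uninjured 2-weeks MRL/MpJ joint and 11.9 to 12.5 CPM in the others.

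By tests of the difference itself, the 1-day injury response of Ndufa4l2 was lower in STR/ort than in C57BL/6 by 1.19 on the log2 scale (log2 difference -1.19), and the change of uninjured joints from 0-day differed between STR/ort and C57BL/6 for 43 of the 89 genes at 1-day and 71 at 1-week, where 9.23% and 21.6% of all genes were called. That comparison over time was added after the values had been seen, and its counts were 1 and 6 with the fast-fibre covariate and 1 and 27 with the factor of unwanted variation.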

How the results depend on the processing

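Counts below are of the 89 genes called. With DESeq2 or with RLE factors, C57BL/6 against MRL/MpJ at 0-day gave 13, and no other count moved by over 1.5 times. Housekeeping scaling gave 22 for 0-day STR/ort against C57BL/6, 5 for 0-day C57BL/6 against MRL/MpJ, 37 for 1-day uninjured STR/ort against MRL/MpJ, 39 for 1-week uninjured STR/ort against C57BL/6, 1 for 2-weeks uninjured STR/ort against C57BL/6 and 0 for 1-day injury in C57BL/6. The factor of unwanted variation gave 22 and 1 for 0-day STR/ort against C57BL/6 and MRL/MpJ, 1 and 1 for 1-day uninjured C57BL/6 and STR/ort against MRL/MpJ, 8 and 11 for 1-week uninjured STR/ort against C57BL/6 and MRL/MpJ, 1 for 2-weeks uninjured C57BL/6 against MRL/MpJ, 0 for 1-day injury in STR/ort, and 2 and 3 for 1-week injury in C57BL/6 and MRL/MpJ. Over time it gave 1 and 7 in STR/ort and 1 and 27 in the difference from C57BL/6. The fast-fibre covariate gave 0 and 2 for 0-day STR/ort against C57BL/6 and C57BL/6 against MRL/MpJ, 1 and 2 for 1-day uninjured STR/ort and C57BL/6 against MRL/MpJ, 4 and 4 for 1-week uninjured STR/ort against C57BL/6 and MRL/MpJ, 1 for 2-weeks uninjured C57BL/6 against MRL/MpJ, 0 for STR/ort injury at 1-day and at 1-week, and 1 for 1-week injury in C57BL/6. Over time it gave 1 for C57BL/6 at 1-week, 5 and 3 for STR/ort, and 1 and 6 for the difference. Where fast-fibre levels of the compared groups lay apart, calls lost with the covariate cannot separate muscle content from strain or time. The cause of these moves was not tested. Its median of the 89 changed sign for 0-day C57BL/6 against MRL/MpJ (-0.40 to 0.02) and for injury at 1-day in C57BL/6 (-0.10 to 0.01) and STR/ort (-0.17 to 0.10), at 1-week in STR/ort (-0.24 to 0.04) and at 2-weeks in C57BL/6 (0.07 to -0.08), for 1-day uninjured STR/ort against C57BL/6 (-0.04 to 0.14), and for the injury response of STR/ort against C57BL/6 at 1-day (-0.06 to 0.08), STR/ort against MRL/MpJ at 1-week (-0.02 to 0.15) and C57BL/6 against MRL/MpJ at 2-weeks (0.06 to -0.08). With the factor of unwanted variation it changed sign for 1-day uninjured STR/ort against C57BL/6 (-0.04 to 0.16), 2-weeks uninjured C57BL/6 against MRL/MpJ (-0.09 to 0.09) and 2-weeks injury in C57BL/6 (0.07 to -0.01), and with housekeeping scaling for the 1-day response of STR/ort against MRL/MpJ (0.03 to -0.04). In MRL/MpJ, medians between -0.07 and 0.00 for 2-weeks injury and for uninjured joints over time also crossed 0 under some settings, to between -0.02 and 0.05.

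A replicate block gave 2 for 1-week injury in MRL/MpJ and 4 in STR/ort, and changed no other count by over 1.5 times. Replicate numbers name the same animal at 2-weeks, where correlations of both joints ran from -0.16 to 0.08 in MRL/MpJ. Elsewhere the labels name no animal, and correlations were 0.10 to 0.23 at 1-week in STR/ort and -0.13 to 0.27 in the other groups. These correlations cannot show whether joints of 1 number came from 1 animal.

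With single libraries left out, the counts at 0-day were 7 to 23 for C57BL/6 against MRL/MpJ, 23 to 45 for STR/ort against C57BL/6 and 2 to 6 for STR/ort against MRL/MpJ. In uninjured joints they were 6 to 18 for C57BL/6 against MRL/MpJ at 1-day and 12 to 28 for STR/ort against C57BL/6 at 1-week, and 0 to 1 at 2-weeks for C57BL/6 against MRL/MpJ and STR/ort against C57BL/6. For injury they were 0 to 1 and 0 to 4 at 1-day in C57BL/6 and STR/ort, 1 to 2 for the difference of these responses, 2 to 8, 1 to 2 and 2 to 8 at 1-week in C57BL/6, MRL/MpJ and STR/ort, and 0 to 1 and 1 to 2 at 2-weeks in MRL/MpJ and STR/ort. C57BL/6 at 1-week against 0-day gave 0 to 5. Ndufa4l2 log2 changes ran from 0.51 to 0.68 (1-day C57BL/6), -0.71 to -0.44 (1-day STR/ort) and 0.60 to 0.79 (2-weeks MRL/MpJ).

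Mean log2 CPM of the 89 genes moved by over 1 SD with housekeeping scaling, to 6.46 and 6.63 in 0-day MRL/MpJ and STR/ort, 5.94, 5.68, 6.43 and 5.94 in 1-day injured C57BL/6, injured STR/ort, uninjured MRL/MpJ and uninjured STR/ort, 5.65 and 5.88 in 1-week injured and uninjured STR/ort, and 6.57, 6.59, 6.45, 6.54 and 6.66 in 2-weeks injured C57BL/6, injured STR/ort, and uninjured C57BL/6, MRL/MpJ and STR/ort. CPM without TMM factors gave 6.51 for 0-day MRL/MpJ. Of the 36 isoform ratio comparisons 0 passed, and with a replicate block the exact sign-flip test cannot go below p = 0.0625 with 5 pairs, so their alternatives say nothing on stability. Sdhd and, at 2-weeks, Cox7a2 rest on few counts.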
